A study of Gallus gallus with 6 samples.

Results

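ATP6, ATP8, COX1, COX3 and CYTB are the genes of complexes III, IV and V of the respiratory chain that lie on the mitochondrial DNA (mtDNA) and that carry a symbol in the deposited data. These 5 genes were found by symbol among the 19219 genes of the count table, and every value below was then taken by gene identifier. RNA was sequenced from bursal lymphocytes of Hy-Line W-36 layer embryos, with 3 libraries at ED19 (ED19_4, ED19_5 and ED19_6) and 3 at ED16 (ED16_1, ED16_2 and ED16_3). ED stands for embryonic day, and the comparison asks which genes differ between these stages, around the time when B-cells of the bursa of Fabricius begin to diversify their immunoglobulin genes. No embryo carried a genetic change or received a treatment. Each library came from its own pool of bursas, whose cells were cut free, filtered and centrifuged on a density gradient, with no sorting of B-cells described.

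The respiratory chain passes electrons from NADH and succinate to oxygen and uses the energy to pump protons across the inner mitochondrial membrane. Complex III (cytochrome bc1) hands electrons to cytochrome c, complex IV (cytochrome c oxidase) hands them to oxygen, and complex V (ATP synthase) makes ATP as the protons flow back. Each complex is built from subunits of both genomes. The mtDNA is transcribed into long RNAs that carry many genes each and are cut into single messengers, so that the levels of these messengers depend on the number of mtDNA copies, on transcription and on how long each messenger lasts. CYTB encodes the catalytic cytochrome b of complex III. COX1 encodes the subunit of complex IV that holds the oxygen-reducing centre, and COX3 a core subunit beside it. ATP6 encodes the proton channel subunit of complex V, and ATP8 a small membrane subunit of the same enzyme.

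The files gave the identifiers ENSGALG00000018368 for ATP6, ENSGALG00000021717 for ATP8, ENSGALG00000018373 for COX1, ENSGALG00000018367 for COX3 and ENSGALG00000018360 for CYTB. In the RefSeq annotation of assembly GRCg7b, all of these symbols lie on the mitochondrial chromosome, with ATP8, ATP6 and COX3 next to each other in that order. The authors aligned to another build, galGal4, so no coordinates are given. The gene lengths behind the deposited RPKM were 1548 bases for COX1, 1143 for CYTB, 784 for COX3, 684 for ATP6 and 165 for ATP8. In vertebrates the reading frames of ATP8 and ATP6 overlap, and reads that cover both genes can be left out or given to either gene, depending on how they are counted. The counting mode is not given in the sources used here. The library fragments were also selected at about the length of ATP8 itself. The level of ATP8 is therefore uncertain, and that of ATP6 less so. Of the 13 protein genes that RefSeq lists on the mitochondrial chromosome, 12 are named in the deposited table, and COX2 was not analysed here.

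The libraries held from 27087661 to 34614652 counts on genes. Symbols are given only for genes that the authors had called different between the stages, so all 5 genes had already passed a test on these counts, and the tests below are not independent of that choice. Among the listed markers of B-cells, 4 of 12 had a symbol, and all 4 were higher at ED19 in edgeR (as were 30.8% of all genes tested and 44.7% of those with a symbol), with summed CPM (counts scaled by library size after TMM normalization) of 820 to 1087 at ED19 and 312 to 382 at ED16. In the share of counts on the 5 genes together, ED19_6 stood apart from ED19_4 and ED19_5, and ED16_3 from ED16_1 and ED16_2. This did not hold for every mtDNA gene. The share of ND3, of complex I, was 0.0141%, 0.0119% and 0.0156% in ED19_4, ED19_5 and ED19_6.

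All 5 transcripts were less abundant at ED19 than at ED16. Together they took 2.03%, 1.74% and 0.924% of the counts of the 3 ED19 libraries, against 4.66%, 4.88% and 3.06% of those of the 3 ED16 libraries. The highest ED19 library lay below the lowest ED16 library, and ED19_6 and ED16_3 were the lowest of their stages. The mean share was 1.56 ± 0.572% (SD, n = 3) at ED19 and 4.20 ± 0.990% (SD, n = 3) at ED16, a 2.69-fold higher share at ED16. An exact permutation test over libraries gave a two-sided p = 0.1, the smallest that 3 libraries against 3 allow. In bulk RNA, fewer cells of a type and less RNA per cell cannot be told apart.

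All 5 genes passed edgeR's quasi-likelihood test as lower at ED19, at a threshold of 0.05 on p-values adjusted by Benjamini and Hochberg's method over 13923 genes. Of all genes tested, 35.6% were called lower at ED19 by the same rule, so a call in this direction was common. Among the tested genes with a symbol, 54.7% were. The stages did not overlap for any of the 5 genes, as for 38.4% of all genes tested that were lower at ED19 without overlap. Log2 fold changes are given as ED19 over ED16, so a negative value is lower expression at ED19. The median log2 fold change was -0.05 over all genes tested and -0.88 over those with a symbol, to which the 5 genes belong. From 7.74% (ATP8) to 25.5% (COX1) of all genes tested had a more negative log2 fold change than the gene in question. The same share among the tested genes with a symbol was not taken.

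**Figure D1:**
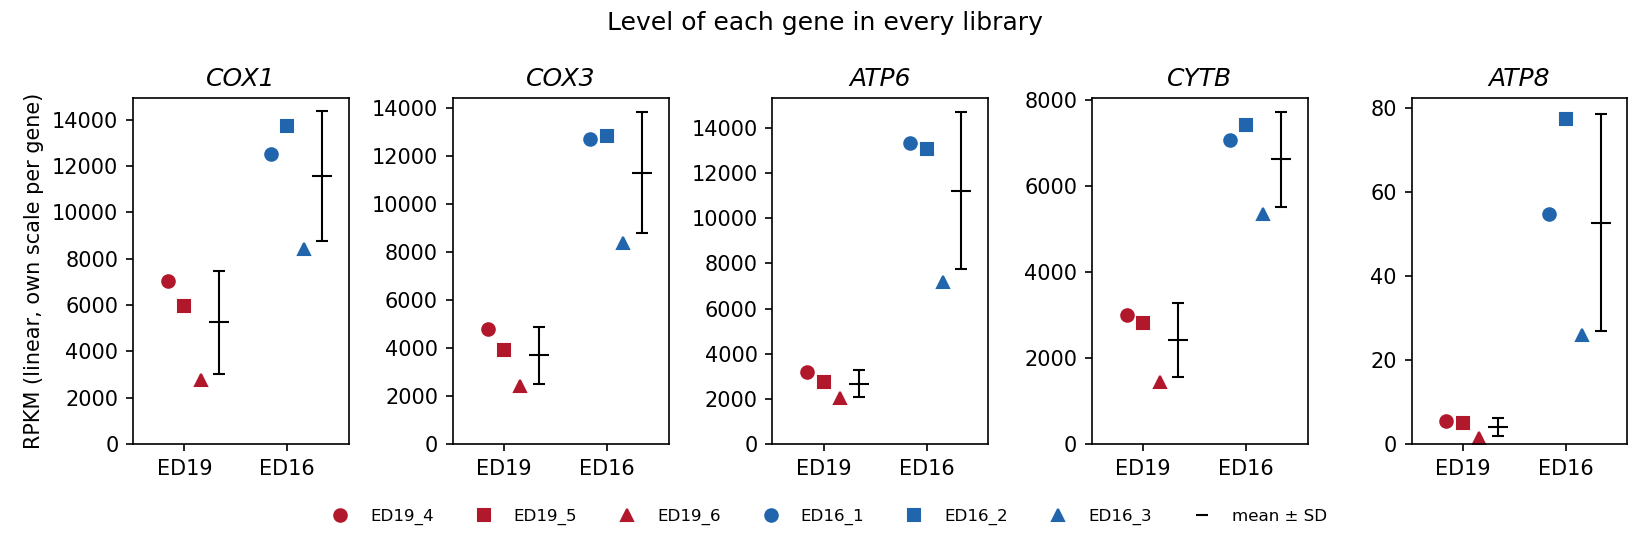
RPKM (reads scaled to gene length and to the library total) of COX1, COX3, ATP6, CYTB and ATP8 in each ED19 library (left, red) and each ED16 library (right, blue), on a linear axis of its own for each gene; bars give the mean ± SD of 3 libraries. Every ED19 library lies below every ED16 library in each panel, and ED19_6 and ED16_3 are the lowest of their stages.

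COX1 had the most counts of the 5 genes. It had 358997, 266018 and 116638 counts at ED19 (ED19_4 to ED19_6), against 671336, 639420 and 405979 at ED16 (ED16_1 to ED16_3). Its RPKM was 7036, 5946 and 2782 in the ED19 libraries, against 12529, 13743 and 8414 in the ED16 libraries. ED19_4 came closest to ED16_3, the lowest ED16 library, and ED19_6 lay far below, so that the highest ED19 value was 2.53 times the lowest. COX1 differed by -1.21 ± 0.36 in log2 fold change (SE; edgeR, adjusted p = 0.017). This was the smallest change of the 5 without a correction for gene length, and with one COX3 had the smallest. The call of COX1 did not survive leaving out ED16_1 (adjusted p = 0.061 from edgeR) or ED16_2 (adjusted p = 0.062 from edgeR), nor limma on log2(RPKM + 1) (adjusted p = 0.065). It was also lost with the correction for gene length (log2 fold change -0.67, adjusted p = 0.14 from edgeR).

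COX3 had 123583, 88381 and 51522 counts at ED19, against 344741, 302206 and 204684 at ED16. Its RPKM was 4782, 3901 and 2426 in the ED19 libraries and 12703, 12825 and 8376 in the ED16 libraries. The lowest ED16 library was well above the highest ED19 library. COX3 differed by -1.68 ± 0.29 in log2 fold change (SE; edgeR, adjusted p = 0.0012), a 3.19-fold higher level at ED16. With the correction for gene length it was not called (log2 fold change -0.64, adjusted p = 0.097 from edgeR).

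CYTB, the only subunit of complex III on the mtDNA, had 112979, 93117 and 44379 counts at ED19, against 279685, 254861 and 190360 at ED16. Its RPKM was 2999, 2819 and 1433 in the ED19 libraries and 7069, 7418 and 5343 in the ED16 libraries. The ED16 libraries of CYTB were the closest together of the 5 genes, with a highest value 1.39 times the lowest. CYTB differed by -1.52 ± 0.29 in log2 fold change (SE; edgeR, adjusted p = 0.0019). With the correction for gene length its call was lost (log2 fold change -0.76, adjusted p = 0.053 from edgeR).

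ATP6 had 72279, 54617 and 37609 counts at ED19, against 315969, 268966 and 153360 at ED16. Its RPKM was 3206, 2763 and 2030 in the ED19 libraries and 13345, 13083 and 7193 in the ED16 libraries. Here the ED19 libraries were closer together than for the other genes, and ED16_3 lay well below ED16_1 and ED16_2. ATP6 differed by -2.13 ± 0.30 in log2 fold change (SE; edgeR, adjusted p = 0.00042), a 4.37-fold higher level at ED16.

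ATP8 had 30, 24 and 7 counts at ED19, against 312, 384 and 133 at ED16. Its RPKM was 5.52, 5.03 and 1.57 in the ED19 libraries and 54.6, 77.4 and 25.9 in the ED16 libraries. These levels were far below those of its neighbour ATP6, although vertebrate ATP8 and ATP6 are carried by a shared messenger. ATP8 differed by -3.74 ± 0.51 in log2 fold change (SE; edgeR, adjusted p = 0.00036), the largest of the 5. With so few counts the 95% Wilson interval of its share of a library was wide and uneven. In ED19_6 it ran from 1.25e-05% to 5.33e-05% around a value of 2.58e-05%. The mean distance of both limits from the value was up to 79.0% of the value for ATP8 (ED19_6). For the other 4 genes it was at most 1.01%. These intervals cover counting error within 1 library only and leave out differences between libraries. They can be too narrow even for that error, since PCR copies of a molecule are counted as separate reads.

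The mean levels, compared per length as RPKM, had the same order at both stages but differed in their spacing. At ED19 the order was COX1 (5255 ± 2210), COX3 (3703 ± 1190), ATP6 (2666 ± 594), CYTB (2417 ± 857) and ATP8 (4.04 ± 2.15; SD, n = 3 each). At ED16 it was COX1 (11562 ± 2793), COX3 (11301 ± 2534), ATP6 (11207 ± 3479), CYTB (6610 ± 1111) and ATP8 (52.6 ± 25.8; SD, n = 3 each). At ED19 COX1 was above COX3, and COX3 above ATP6, in all 3 libraries, while ATP6 and CYTB changed places in ED19_5. At ED16 COX1, COX3 and ATP6 did not differ beyond their spread, and each of COX1 and ATP6 was the highest of the 5 in at least 1 library. COX1 ranked 2, 3 and 26 among all 19219 genes by RPKM at ED19, and 3, 1 and 1 at ED16. ATP6 ranked 8, 12 and 57 at ED19, and 1, 2 and 5 at ED16. The rank of ATP8 lay between 7933 and 9286 at ED19 and between 1371 and 3328 at ED16.

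Ratios between the genes within a library do not depend on the library total or on a scaling factor per library, but they do move with a correction for gene length. The 5 genes form 10 pairs, and in 8 of them the ratios of the 3 ED19 libraries did not overlap those of the 3 ED16 libraries. The CPM of single genes did not overlap, in either direction, for 71.5% of all genes tested. Each of these 8 had a two-sided exact permutation p = 0.1, the smallest possible, and p = 0.125 after Benjamini-Hochberg adjustment over the 10 pairs. Of the 6 pairs without ATP8, 4 did not overlap. After each library was corrected for its trend on gene length, an alternative chosen after the values were seen, 4 of the 10 pairs did not overlap, all of them pairs with ATP8, and the 6 pairs without ATP8 overlapped. The ratios share genes and are not independent of each other.

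The ratio of ATP6 to COX1 counts was 0.201, 0.205 and 0.322 in the ED19 libraries, against 0.471, 0.421 and 0.378 in the ED16 libraries. The log2 ratio differed by -0.83 at ED19, more than the SD within either stage (0.38 at ED19 and 0.16 at ED16), and by -0.27 with the length correction (exact permutation p = 0.3). The ratio of ATP6 to its neighbour COX3 was 0.585, 0.618 and 0.730 at ED19, against 0.917, 0.890 and 0.749 at ED16. Here ED19_6 and ED16_3 nearly met. The ratio of COX1 to COX3, both of complex IV, was 2.90, 3.01 and 2.26 at ED19, against 1.95, 2.12 and 1.98 at ED16. With the length correction this log2 ratio differed by -0.053 in place of 0.43 (exact permutation p = 0.9), so the direction turned. COX1 was also higher relative to CYTB, with ratios of 3.18, 2.86 and 2.63 at ED19 and 2.40, 2.51 and 2.13 at ED16, a log2 difference of 0.30, or 0.078 with the length correction. The ratio of COX3 to CYTB overlapped between the stages, with 1.09, 0.949 and 1.16 at ED19 and 1.23, 1.19 and 1.08 at ED16 (log2 difference -0.13, exact permutation p = 0.3), and its difference was 0.13 with the length correction. So did that of ATP6 to CYTB (exact permutation p = 0.2), where ED19_6 had 0.847 and ED16_3 0.806. The count of ATP8 was smallest against every other gene at ED19: for each ATP8 count there were 2409, 2276 and 5373 ATP6 counts in the ED19 libraries, against 1013, 700 and 1153 in the ED16 libraries, of which the ED19_6 value rests on 7 counts.

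**Figure D2:**
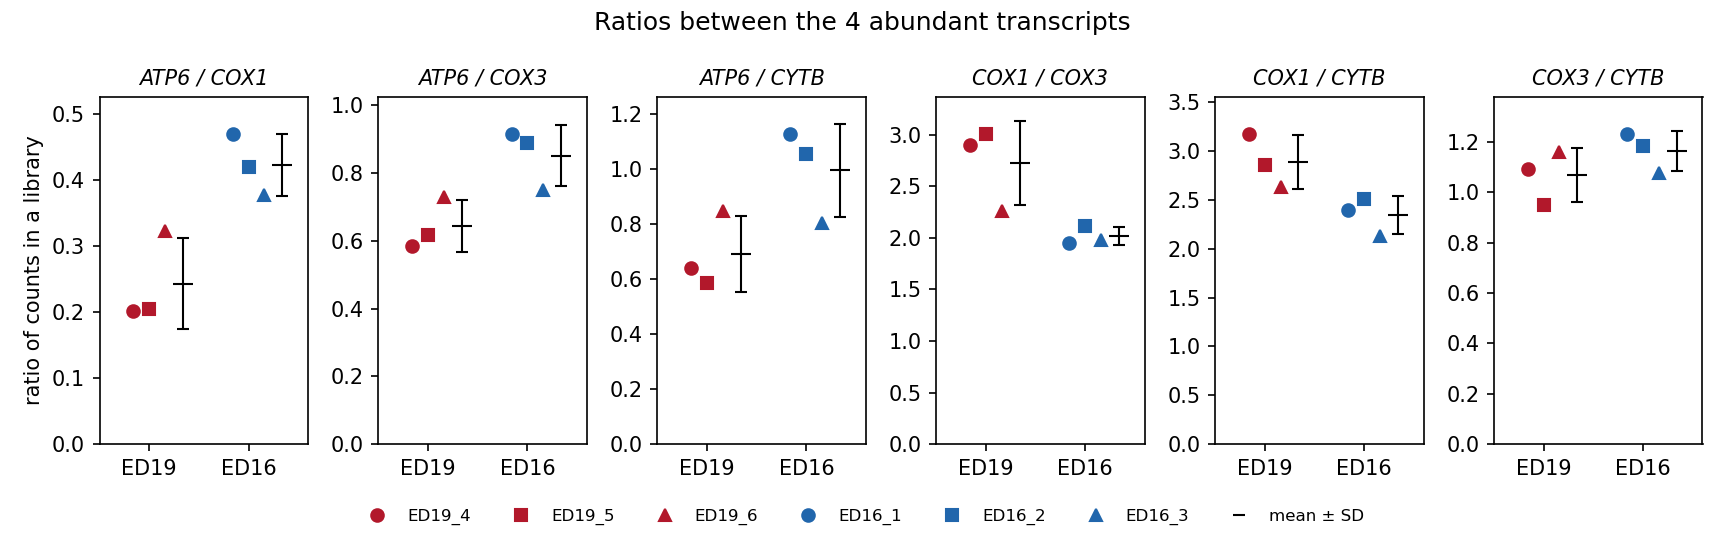
Ratio of counts within each library for the 6 pairs of COX1, COX3, ATP6 and CYTB, for ED19 (left, red) and ED16 (right, blue) libraries, with bars at the mean ± SD of 3 libraries and linear axes from 0. ATP6/COX1 and ATP6/COX3 are lower and COX1/COX3 and COX1/CYTB higher at ED19 without overlap, whereas ATP6/CYTB and COX3/CYTB overlap; with a correction for gene length, which is not plotted, all 6 overlap.

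As a share of the uncorrected counts of the 5 genes, COX1 took 53.8%, 53.0% and 46.6% at ED19, against 41.6%, 43.6% and 42.5% at ED16. ATP6 took 12.2 ± 2.42% at ED19 and 18.0 ± 1.79% at ED16 (SD, n = 3 each; two-sided exact permutation p = 0.1). CYTB took 17.7 ± 0.814% at ED19 and 18.2 ± 1.49% at ED16 (SD, n = 3 each; two-sided exact permutation p = 0.7), and its libraries overlapped. For COX1 and ATP6, ED19_6 was the ED19 library nearest to the ED16 libraries.

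The 7 complex I subunits on the mtDNA with a symbol were also all lower at ED19 in edgeR, with log2 fold changes from -3.58 (ND6) to -1.28 (ND5) and a median of -1.52, beside a median of -1.68 for the 5 genes of complexes III, IV and V. By the same rule 35.6% of all genes tested, and 54.7% of those with a symbol, were lower, and with the correction for gene length 3 of the 7 were called (ND3, ND4 and ND6), where 25.5% of all genes were. The share called with that correction was not taken among the genes with a symbol. The counts of the 5 genes were 1.92, 1.77 and 1.91 times those of these 7 in the ED19 libraries and 2.01, 1.87 and 1.64 times in the ED16 libraries, which overlapped (exact permutation p = 0.8). ND6, the only protein gene of the opposite strand in vertebrate mtDNA, had the value nearest to ATP8 (-3.74). The paper describes no strand-specific library step and judges its base balance by what holds for non-stranded libraries. In such libraries, reads of ND6 and of RNA from the strand opposite to it cannot be told apart.

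**Figure D3:**
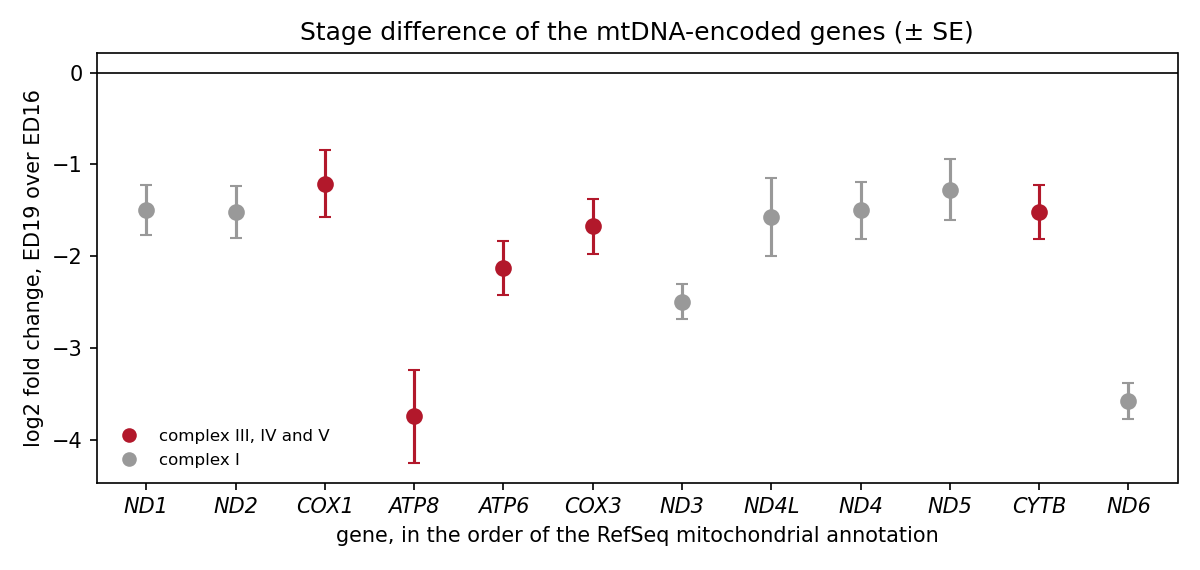
Log2 fold change, ED19 over ED16, of the 12 mtDNA-encoded genes with a symbol (points; bars give 1 standard error from edgeR), in the order of the RefSeq mitochondrial annotation of GRCg7b with COX2 left out, for complexes III, IV and V (red) and complex I (grey). All points lie below 0, from -3.74 for ATP8 to -1.21 for COX1.

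Without a correction for gene length, the partner subunits of the same complexes that are encoded in the nucleus were lower at ED19 too. Of 15 such genes with a symbol, all of which were tested, 13 were called lower at ED19 by edgeR, where 35.6% of all genes tested and 54.7% of those with a symbol were. ATP5G3 (log2 fold change -0.81, adjusted p = 0.056) and ATP5H (-0.80, adjusted p = 0.060), of complex V, did not pass the threshold in edgeR. The median log2 fold change of the 15 was -1.11, beside -0.88 over the tested genes with a symbol and -0.05 over all genes tested. With the length correction it was -0.14, beside 0.38 over all genes tested, and 2 of the 15 were called lower. The median over the genes with a symbol was not taken with that correction. UQCRH, ATP5D, ATP5G3, ATP5H and ATP5J then had log2 fold changes above 0, from 0.043 (UQCRH) to 0.26 (ATP5J). The summed share of the uncorrected counts on the 15 genes was 0.268%, 0.261% and 0.445% in the ED19 libraries, against 0.662%, 0.594% and 0.697% in the ED16 libraries. In summed share, ED19_6 was the highest of its stage for the nuclear genes and the lowest for the mtDNA genes.

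In complex III, UQCR11 changed by -1.57 on the log2 scale, UQCR10 by -1.36 and UQCRH by -1.11 (adjusted p = 0.0012, 0.0063 and 0.017 from edgeR). All 3 encode small subunits of the bc1 complex, and with the length correction 0 of the 3 were called. In complex IV, the largest changes were those of COX7C (-1.69, adjusted p = 0.0021 from edgeR) and COX6C (-1.28, adjusted p = 0.0076), and the smallest those of NDUFA4 (-1.07) and COX7A2 (-1.04). In complex V, USMG5 (-1.74, adjusted p = 0.00043 from edgeR) and ATP5G2 (-1.34, adjusted p = 0.0029) changed most. With the length correction USMG5 was still called and ATP5G2 was not (-0.22, adjusted p = 0.44 from edgeR). ATP5B, the catalytic beta subunit, had an RPKM of 748 ± 156 at ED19 and 1315 ± 103 at ED16 (SD, n = 3 each), the highest of the 15 at each stage.

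The counts of the 5 mtDNA genes divided by those of the 15 nuclear genes gave 7.56, 6.65 and 2.08 in the ED19 libraries, against 7.03, 8.20 and 4.39 in the ED16 libraries. The stages overlapped, and the log2 ratio differed by -0.43 (two-sided exact permutation p = 0.6). ED19_6 decided the sign of this difference, which was 0.16 without it. ED19_4 and ED19_5 thus had a ratio within the range of the ED16 libraries, and ED19_6 had one below it.

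**Figure D4:**
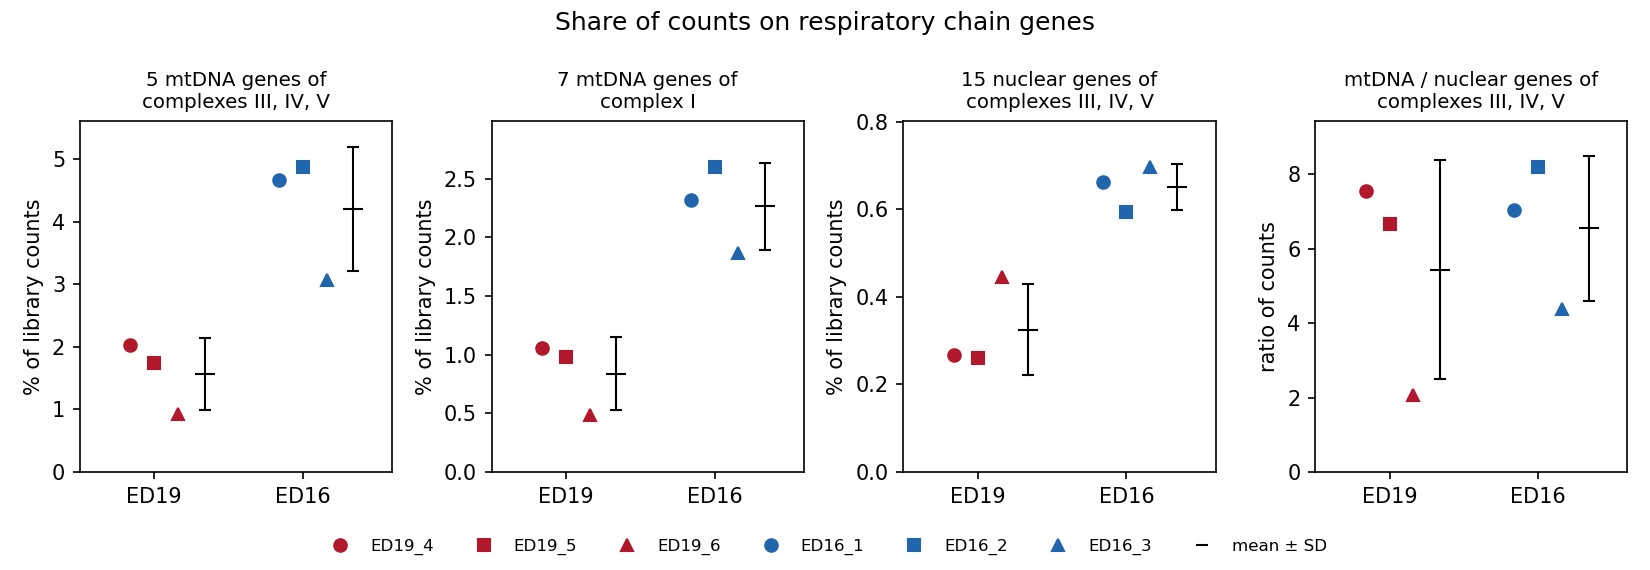
Percent of library counts on the 5 mtDNA genes of complexes III, IV and V, on 7 mtDNA genes of complex I and on 15 nuclear genes of complexes III, IV and V, and the ratio of the first to the third, in ED19 (left, red) and ED16 (right, blue) libraries with the mean ± SD of 3 libraries. The shares do not overlap between the stages, the ratio does, and ED19_6 (red triangle) is lowest of its stage for the mtDNA genes and highest for the nuclear genes.

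Nuclear genes that act on the mtDNA and its RNA were called in both directions. Of 10 tested genes for processing and stability of mitochondrial RNA, 8 were higher and 2 lower at ED19 in edgeR, where 44.7% and 54.7% of the tested genes with a symbol were, and their median log2 fold change was 0.78. LRPPRC, which stabilizes mitochondrial messengers in mammals, had an RPKM of 170 ± 12.7 at ED19 and 73.2 ± 8.53 at ED16 (SD, n = 3 each), and differed by 1.16 on the log2 scale (edgeR, adjusted p = 0.00032). FASTKD1 rose by 1.34 on the log2 scale (adjusted p = 0.00045 from edgeR), while FASTK (-1.33, adjusted p = 0.00020) and TBRG4 (-0.90, adjusted p = 0.00090) fell, and all 3 belong to the FASTK family of mitochondrial RNA-binding proteins. Of 7 genes for mtDNA maintenance and transcription, 4 were higher and 3 lower at ED19. TFB1M (1.17), a methyltransferase of mitochondrial ribosomal RNA, and TK2 (1.05), a mitochondrial thymidine kinase, had the most positive log2 fold changes, and DGUOK (-1.15), a mitochondrial deoxyguanosine kinase, and MPV17 (-1.14) the most negative (adjusted p from 0.00023 to 0.012 in edgeR).

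Regulators of mitochondrial biogenesis were split. GABPA (log2 fold change 1.42, adjusted p = 0.00024 from edgeR) and its partner GABPB1 (1.20, adjusted p = 0.00031), which form a transcription factor for respiratory chain genes in mammals, were higher at ED19. PPRC1 (-1.43, adjusted p = 9.7e-05 from edgeR) and PPARGC1A (-3.73, adjusted p = 0.0016), coactivators of such genes, were lower. PPARGC1A was hardly expressed, with an RPKM of 0.0169 ± 0.0171 at ED19 and 0.233 ± 0.113 at ED16 (SD, n = 3 each). Of 6 tested genes of other mitochondrial proteins, 5 were lower at ED19. By the same rule 35.6% of all genes tested, and 54.7% of those with a symbol, were lower. Among the 5 were VDAC1 (-1.77, adjusted p = 0.00049 from edgeR), a channel of the outer membrane, and SDHC (-1.42, adjusted p = 0.00027) of complex II. VDAC1 had the lowest RPKM of the 6, 1.74 ± 0.315 at ED19 and 5.80 ± 0.986 at ED16 (SD, n = 3 each). Of the same list, the values nearest 0 were those of IDH3B (-0.78, adjusted p = 0.0057) and PHB (-0.59, adjusted p = 0.054). Of 2 assembly genes, COX15 (-0.79, adjusted p = 0.010 from edgeR) and COX17 (-0.88, adjusted p = 0.020), both needed to build complex IV, were lower. With a correction for gene length, the 3 lower calls of mtDNA maintenance genes and both assembly calls were lost and 3 of the 6 genes of other mitochondrial proteins were called lower, while RNA processing genes stood at 8 higher and 2 lower and biogenesis regulators at 3 higher and 2 lower. Over all genes tested, 25.5% were called lower and 43.2% higher with that correction, and the shares among genes with a symbol were not taken. These lists hold only genes with a symbol, which the authors had called.

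The stages also differed in markers of other cell types. Of 78 listed markers for 8 cell types other than B-cells, 48 were tested. Among them were 8 of 17 kidney tubule and 5 of 11 erythroid markers. The rest had no symbol or were not kept for testing. Of the 48, 44 were lower and 4 higher at ED19 in edgeR, where 54.7% and 44.7% of the tested genes with a symbol were. Erythroid markers summed to 79.6 to 135 CPM at ED19 and 2310 to 3045 CPM at ED16 (5 of 5 lower). Epithelial markers summed to 8.07 to 9.91 CPM at ED19 and 181 to 387 at ED16 (7 of 7 lower), and kidney tubule markers to 4.84 to 5.98 at ED19 and 159 to 478 at ED16 (8 of 8 lower). Kidney tubules are known for many mitochondria. Muscle markers summed to 14.8 to 21.5 CPM at ED19 and 31.7 to 53.6 at ED16 (3 of 4 lower), and fibroblast markers to 17.0 to 26.4 at ED19 and 73.5 to 84.2 at ED16 (5 of 5 lower). T-cell markers summed to 113 to 205 CPM at ED19 and 285 to 392 at ED16 (7 of 8 lower). Granulocyte and macrophage markers summed to 389 to 442 CPM at ED19 and 292 to 308 at ED16 (6 of 7 lower), and endothelial markers to 9.23 to 27.1 at ED19 and 6.17 to 9.01 at ED16 (3 of 4 lower). SPI1 (13207, 11460 and 10747 counts at ED19) made up most of the first sum, and PECAM1 (945, 574 and 221) most of the second. Both were higher at ED19, while every other tested marker of these lists was lower. CD3D made up most of the T-cell sum, and MYH11, which was higher at ED19, most of the muscle sum at ED19. AGXT and PIPOX of kidney tubule and VWF of endothelium had no count in any ED19 library. Their part in the change of the mtDNA genes was not tested.

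A correction of each library for gene length left 2 of the 5 genes called lower at ED19, ATP6 (log2 fold change -1.02, adjusted p = 0.016 from edgeR) and ATP8 (-3.02, adjusted p = 0.00063), where 25.5% of all genes were called lower and 43.2% higher. COX1 (-0.67), COX3 (-0.64) and CYTB (-0.76) had adjusted p of 0.14, 0.097 and 0.053 in edgeR with it. The correction moved the median over all genes to 0.38, and relative to that median the 5 genes stood at -1.05 (COX1), -1.02 (COX3), -1.13 (CYTB), -1.40 (ATP6) and -3.40 (ATP8). Among the genes with a symbol, to which the 5 belong, neither the median nor the share called was taken with the correction. Without it their median was -0.88, beside -0.05 over all genes, so distances from the median over all genes can overstate how far the 5 stood out. Of the 15 nuclear subunits, 2 were then called lower, COX7C and USMG5. Their gene lengths were 1514 and 1521 bases, beside a median of 624 for the 15, and the size of the correction depends on length. Whether that set these 2 apart was not tested.

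Among 6783 tested genes with a symbol outside the mtDNA, those whose log2 CPM over the 6 libraries lay closest to the mean profile of the 5 genes, each profile taken relative to its own mean, were CNRIP1, PLD1, MAST3, GALNT16 and SOUL. Their root mean square distance from that profile was 0.074, 0.092, 0.12, 0.12 and 0.13 on the log2 scale, and that of the 5 genes themselves ran from 0.17 (ATP6) to 0.85 (ATP8). ATP8, with its few counts, weighed as much in that profile as each other gene. The log2 fold changes of the closest genes ran from -2.24 (MAST3) to -1.86 (GALNT16), more negative than those of COX1, COX3 and CYTB. PLD1 encodes a phospholipase D, GALNT16 an enzyme that starts O-linked glycosylation, and MAST3 a protein kinase. CNRIP1, the closest, had 40, 27 and 13 counts at ED19, against 143, 147 and 78 at ED16. ED19_6 and ED16_3 were the lowest of their stages, as in the profile by which CNRIP1 was chosen. These genes were chosen for their likeness and were not tested for it.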

How the data were processed

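The authors deposited raw counts per gene, which they made by aligning paired-end reads of poly-A selected RNA to galGal4 with TopHat2 2.0.12 and counting with HTSeq (listed as 0.601 in the submitters' processing notes). The counting mode and strand setting are not given in the sources used here. The authors also deposited RPKM, which equalled the count divided by gene length and library total: for 17458 of 19219 genes the length came out whole within 0.01 bases, and the other 1761 had no counts. A table of 8469 genes the authors called supplied symbols only; its stage means, fold changes and p-values were not used. In it, 7173 of the genes carry a symbol.

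Genes were kept by filterByExpr and tested with edgeR 4.0.16 (R 4.3.3), TMM and the quasi-likelihood test, all genes together, with Benjamini-Hochberg adjustment. The standard error is the log2 fold change divided by the square root of F. Library values were compared by exact permutation (scipy 1.17.1), two-sided. The edgeR test was checked on simulated counts without a trend on gene length. In them few genes changed, equally many up and down, and the spread between libraries was modelled alike for every gene. The check therefore does not cover such a trend, changes as common as those found here, or a larger spread between libraries. Alternatives were other scalings, other filters, DESeq2 1.42.0, limma 3.58.1 on log2(RPKM + 1), fits without each library, and a loess fit (span 0.5) that corrects each library for gene length. The genes, marker lists and pathway lists were chosen with earlier results of these data known. From each pathway list the 2 highest and 2 lowest log2 fold changes were named. The ratios of mtDNA to nuclear genes and to complex I genes, and the length correction of all ratios, were added after the values were seen. A count of 3, the floor for detection, is 8.67e-06% to 1.11e-05% of a library. Read GC content, the percentage of reads mapped and RNA integrity differed between the stages in the study's statistics. GC content and mapping did not overlap between the stages, and RNA integrity is given only as an average per stage. Each therefore went along with stage and cannot be told apart from it, and none was corrected for here. A correction for GC content would also need gene sequences, which were not used.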

Additional observations from a re-analysis of the deposited data

How the results depend on the processing

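The log2 fold changes of the 5 genes were negative under every one of the 15 alternatives that gave a value (14 for ATP8, which the filter of 10 counts in every library removed). ATP6 and ATP8 stayed past the threshold in all of them. With the gene length correction COX1 (-0.67), COX3 (-0.64) and CYTB (-0.76) did not pass, which left 2 genes called, and COX1 did not pass with limma (-1.21). Without 1 library at a time, COX1 ran from -1.42 to -0.90, and 4 to 5 genes were called. The median of the 15 nuclear subunits was -0.14 with the length correction and ran from -1.62 (without ED19_6) to -0.89 over libraries left out. The length correction also turned the split of calls over all genes, to 3553 lower and 6019 higher at ED19, against 4953 and 4287 without it. Upper-quartile normalization gave 5638 and 3446 and moved the median of all genes to -0.26. The summed share kept its direction in the settings run, with a log2 ratio of ED19 to ED16 from -1.66 to -1.11. Leaving out a library could not turn it, since the stages did not overlap, and the length correction was not applied to it. Of the 10 pairs of genes, 8 to 10 did not overlap over libraries left out. Leaving a library out cannot make separated stages overlap, so this count could not fall below the 8 of all libraries. With the length correction, 4 of the 10 pairs did not overlap. Without the pairs that hold ATP8, 4 pairs did not overlap without that correction. The log2 ratio of mtDNA to nuclear genes ran from -0.77 to 0.16 (without ED19_6), and the log2 ratio of the 5 genes over complex I subunits ran from -0.055 (without ED16_3) to 0.092. The cause of these shifts was not tested. No paired analysis was possible because the stages share no replicate number. Among the 5 genes, ATP8 had the fewest counts. Whether depth, its length or the way reads were counted limited them was not tested.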
